A study of Drosophila melanogaster with 6 samples.

Results

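Transcripts of 6 genes that mark or direct the renal stem cells of Drosophila melanogaster were followed in Malpighian tubules, which serve the fly as kidneys, with and without a gut tumour. They are esg, N (Notch), Dl (Delta), Sox21a, Sox100B and zfh2, chosen by their FlyBase symbols, and all 6 were found among the 17611 genes of the count table and passed the filter that left 9789 genes for testing. Control flies carried esg-GAL4, UAS-GFP and the temperature-sensitive repressor tub-GAL80TS over a wild-type chromosome, and tumour flies carried 1 copy of UAS-yki3SA in addition. This transgene encodes an active form of Yorkie, the growth regulator of the Hippo pathway, and the esg-GAL4 driver acts in cells that express esg. Virgin flies of both genotypes spent 6 to 8 days at 18 °C before a shift to 29 °C, which lasted 8 days. Tubules were pooled, 80 of each genotype being lysed, and RNA with an integrity number above 7 was sequenced after poly-A selection, with 3 libraries per group.

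The adult tubule is built mainly of principal and stellate cells, and a small set of quiescent progenitors lies in its lower part, near the gut. These renal stem cells express esg, as the stem cells of the midgut do. In both lineages the ligand Delta on a stem cell can activate the receptor Notch on its neighbour. Cleavage of Notch frees an intracellular part that binds the DNA-binding protein Su(H) and the coactivator Mastermind and turns on genes of the Enhancer of split complex. The Sox and zinc-finger proteins encoded by the other members act in the gut progenitors, in their division or differentiation. Sequences of the members were not used here.

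The 6 libraries held 34640437 to 49338340 counts. Levels are given as CPM, a gene's counts relative to the total of its library, after TMM scaling, which corrects for a few abundant transcripts. A gene without counts may have up to 3 counts' worth of transcript, or 0.0608 to 0.0866 CPM on the unscaled totals. The labels name no separate cultures or cohorts behind the libraries. The p-values therefore measure only how far these libraries differ, and that spread may be technical. Means are followed by the SD over the 3 libraries of a group, and log2 fold changes are tumour over control, followed by their SE. Of all genes tested, 14.8% were higher and 13.0% lower in tumour tubules at an adjusted p under 0.05 (quasi-likelihood test of edgeR, used throughout). When libraries were scaled by their totals alone, these shares were 31.5% and 8.48%, and the median log2 fold change of all genes moved from 0.08 to 0.37. Over all genes tested, the median ratio of the highest to the lowest library was 1.33 in the tumour group and 1.34 in the control group. The tumour libraries differed more from each other in germline and cell cycle genes. In tumour replicate 3, 5 of 6 germline markers (vas, nos, osk, bam, aub and yl) and 8 of 9 cell cycle genes were above every control library. All 6 and all 9 were below every control library in tumour replicates 1 and 2. Both sets were cut from longer lists after the values were seen. The share of all genes outside the control range in a single tumour library was not computed. The yki transcript averaged 74.1 ± 9.24 CPM in control tubules, against 84.1 ± 6.96 CPM with the transgene (adjusted p = 0.331, edgeR).

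Of the 6 members, 2 were higher in tumour tubules, zfh2 and Sox100B, against a background of 14.8% of all genes tested, and 0 were lower in the edgeR test, against 13.0%. At an unadjusted p under 0.05, 3 members were higher (background 22.7%) and 0 lower (18.2%). DESeq2 called 3 higher (13.9%) and 0 lower (17.4%), and limma-voom 2 higher (14.9%) and 0 lower (13.3%). The 2 genes zfh2 and Sox100B were also the members whose groups did not overlap, with all tumour libraries above all control libraries, as in 26.8% of the genes tested. No member had all tumour libraries below all control libraries, as 20.1% of genes did. For the other 4 members the mean hides differences between the tumour libraries, and each is given by library.

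**Figure D1:**
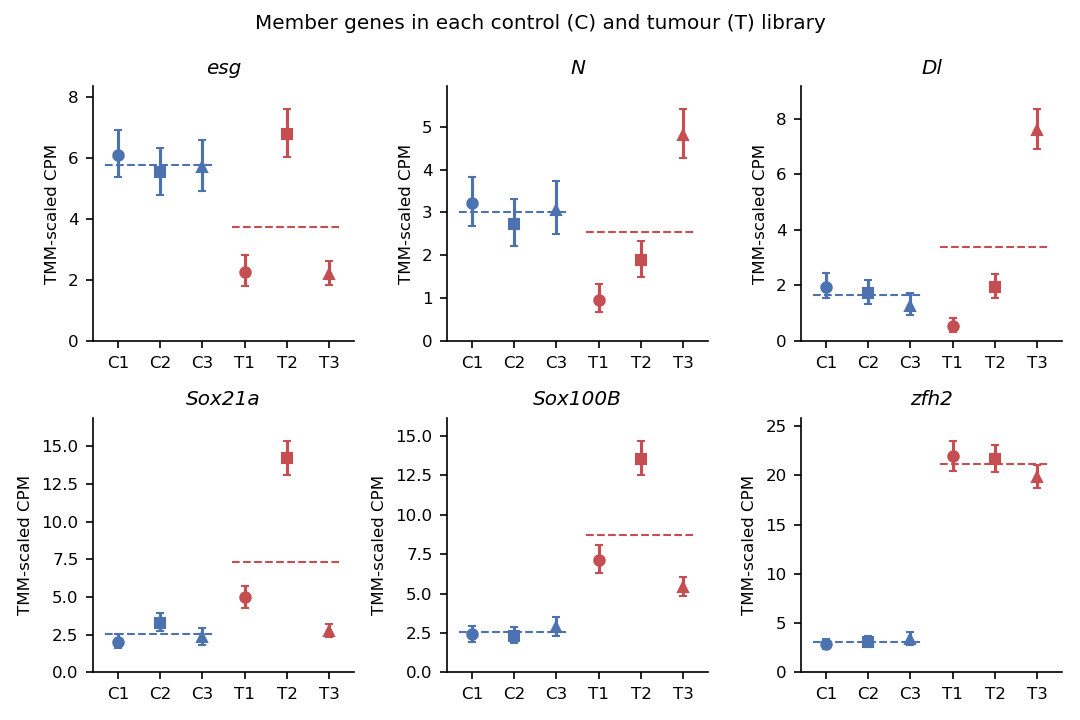
TMM-scaled CPM of each member in control libraries (C1 to C3, blue) and tumour libraries (T1 to T3, red); bars are exact 95% Poisson intervals, which cover counting error only, and dashed lines are group means. The 3 tumour libraries of zfh2 lie between 19.8 and 21.9 CPM, whereas those of Dl reach from 0.544 to 7.61 CPM.

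The ligand gene Dl (FBgn0000463, chromosome 3R, 19302731 to 19326217, Ensembl BDGP6 annotation) was at 1.95, 1.73 and 1.28 CPM in control replicates 1 to 3. In tumour replicates 1, 2 and 3 it was at 0.544, 1.95 and 7.61 CPM. Tumour replicate 1 thus lay below the control libraries, tumour replicate 2 within their range and tumour replicate 3 above them. These values rest on 20 counts in tumour replicate 1 (95% Poisson interval 0.333 to 0.841 CPM, counting error only) and on 441 counts in tumour replicate 3 (6.91 to 8.35 CPM). Its log2 fold change of 1.03 ± 0.83 missed the threshold (adjusted p = 0.398, edgeR). Without tumour replicate 3 it turned to -0.42 ± 0.59 (adjusted p = 0.654; the alternatives ranged from 0.124 to 0.828).

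The receptor gene N (FBgn0004647, chromosome X, 3134870 to 3172221) followed the same order of tumour libraries with a smaller span. It was at 3.22, 2.73 and 3.07 CPM in the control and at 0.953, 1.88 and 4.81 CPM in the tumour replicates 1 to 3. Tumour replicates 1 and 2 lay below the control libraries and tumour replicate 3 above them. The log2 fold change was -0.23 ± 0.55 (adjusted p = 0.786, edgeR). It was -1.09 ± 0.40 without tumour replicate 3 (adjusted p = 0.0935, the lowest of all alternatives), 0.092 without tumour replicate 1 (adjusted p = 0.898) and 0.10 with library totals alone as the scaling (adjusted p = 0.905), so no direction can be given for N or for Dl.

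The summed level of the 6 germline markers was 60.0, 50.1 and 65.5 CPM in the control and 15, 7.17 and 78.4 CPM in the tumour replicates 1 to 3. For nos, which encodes the germline translational regulator Nanos, these levels were 3.90, 2.95 and 3.49 CPM and 1.06, 0.59 and 9.48 CPM. Like Dl and N, the germline markers were therefore highest in tumour replicate 3. The 9 cell cycle genes summed to 292, 255 and 288 CPM in the control and 161, 149 and 589 CPM in the tumour replicates, and CycB, a mitotic cyclin gene, reached 217 CPM in tumour replicate 3 against 15.6 CPM in tumour replicate 2. The 6 eggshell markers went the other way, from 92.5 to 244 CPM in control libraries to 0.707 CPM in tumour replicate 3, 2.68 in replicate 2 and 6.56 in replicate 1. The list fixed for the germline and eggshell held 12 genes, which summed to between 143 and 304 CPM in control and between 9.84 and 79.1 CPM in tumour libraries, and its division was made after the values were seen. The part of germline or dividing cells in the levels of Dl and N was not tested. In RNA of whole tubules, fewer cells of a type and less RNA per cell cannot be told apart.

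**Figure D2:**
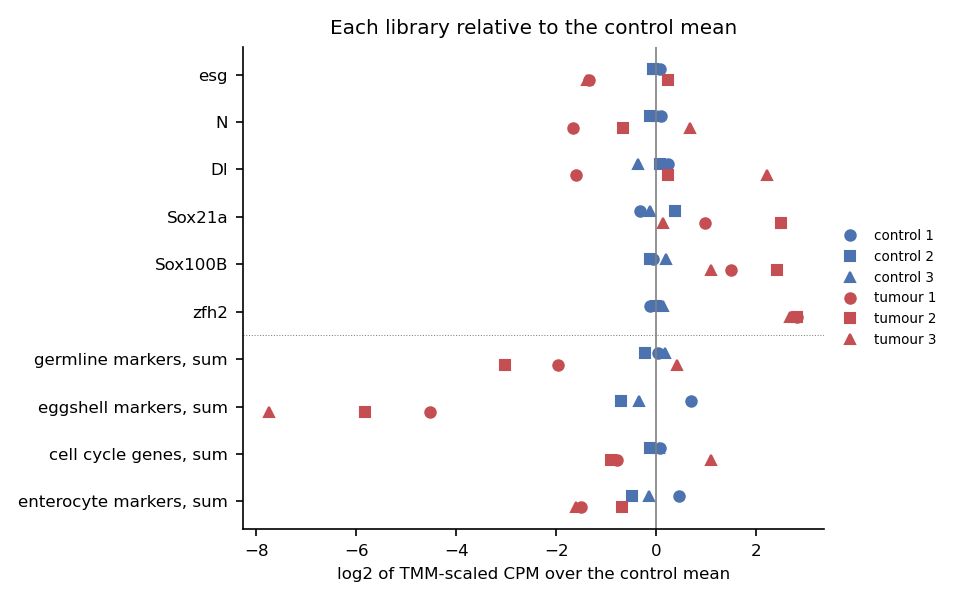
Log2 of the TMM-scaled CPM of each library over the control mean, for the 6 members and for the sums of 6 germline markers, 6 eggshell markers, 9 cell cycle genes and 18 enterocyte markers (control blue, tumour red; circle, square and triangle are replicates 1, 2 and 3). Tumour replicate 3 (red triangle) lies to the right for N, Dl, the germline sum and the cell cycle sum, and tumour replicate 2 (red square) is the highest tumour library for esg, Sox21a, Sox100B and the enterocyte sum.

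The stem cell gene esg (FBgn0287768, chromosome 2L, 15333866 to 15336138) encodes a Snail-family zinc-finger repressor that keeps gut progenitors undifferentiated. Its level was 6.11, 5.52 and 5.71 CPM in the control and 2.26, 6.78 and 2.21 CPM in the tumour replicates 1 to 3. The control libraries differed by a factor of 1.11 from lowest to highest, as against 3.07 in the tumour group, where replicates 1 and 3 lay below the controls and replicate 2 above them. The log2 fold change was -0.62 ± 0.45 (adjusted p = 0.339, edgeR). Without tumour replicate 2 esg fell, by 1.37 ± 0.29 on the log2 scale (adjusted p = 0.0195; the alternatives ranged from 0.0195 to 0.577), and 9.70% of all genes tested were then lower.

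Sox21a (FBgn0036411, chromosome 3L, 14103481 to 14108118) encodes a group B Sox factor required in midgut progenitors. It was at 2.03, 3.27 and 2.34 CPM in the control and at 4.98, 14.2 and 2.78 CPM in the tumour replicates 1 to 3. Tumour replicate 3 lay within the range of the control libraries and the other tumour libraries above it. The log2 fold change of 1.52 ± 0.59 missed the threshold (adjusted p = 0.0915, edgeR). It passed without tumour replicate 3 (1.90 ± 0.44, adjusted p = 0.024, where 9.96% of all genes were higher), with library totals alone (1.78, adjusted p = 0.042) and in DESeq2 (1.47, adjusted p = 0.0298), and it was 0.61 ± 0.41 without tumour replicate 2 (adjusted p = 0.327).

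Sox100B (FBgn0024288, chromosome 3R, 31065253 to 31083407), the fly's group E Sox gene, rose in all 3 tumour libraries. It was at 2.41, 2.33 and 2.89 CPM in the control and at 7.13, 13.6 and 5.43 CPM in the tumour replicates 1 to 3. The lowest tumour library was thus above the highest control library. The log2 fold change was 1.78 ± 0.36, or 3.43-fold (adjusted p = 0.00984, edgeR), and lay between 1.31 and 2.05 over all alternatives, with an adjusted p of 0.000119 to 0.0387. As for Sox21a and esg, tumour replicate 2 was the highest library.

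The summed level of the 18 midgut enterocyte markers, the absorptive cells of the gut, was 389 to 747 CPM in control libraries and 190, 336 and 179 CPM in tumour replicates 1 to 3. Of these markers 10 fell and 2 rose (nub and Myo31DF), where 13.0% and 14.8% of all genes did. With limma-voom 12 were lower and 1 higher, where 13.3% and 14.9% of all genes were. In the sum, tumour replicate 2 was the highest tumour library. The protease gene Jon65Aiii was at 1.93, 21.4 and 0.552 CPM in the tumour replicates and passed as lower only in the fit without tumour replicate 2 (log2 fold change -4.48, adjusted p = 0.0424), of 15 alternatives. In the same libraries lambdaTry was at 0, 2.22 and 0 CPM, and mag had 1 count in tumour replicate 2 and 0 in the others. The gene mag was lower in tumour tubules under all 15 alternatives, with a log2 fold change between -10.9 and -8.51. The transcription factor gene nub, a marker of enterocytes, rose from 3.01 ± 1.61 to 11.2 ± 6.63 CPM on average (adjusted p = 0.0434, edgeR) and was highest in tumour replicate 2 at 18.8 CPM. Its call was lost in 9 of 15 alternatives, among them RLE scaling, no filter, limma-voom and 5 of the 6 fits without 1 library. Its log2 fold change went from 1.89 to 1.30 without tumour replicate 2. That of Myo31DF, which encodes an unconventional myosin, was lost in 8. Among growth signals of the gut, the cytokine gene upd3 rose as well (log2 fold change 3.30 ± 0.65, adjusted p = 0.00966), to 5.85, 15.6 and 5.33 CPM in the tumour replicates. The part of gut tissue in the levels of esg, Sox21a and Sox100B was not tested.

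The gene zfh2 (FBgn0004607, chromosome 4, 501810 to 540874) encodes a large protein with zinc fingers and homeodomains that acts in the midgut progenitors. It was at 2.84, 3.08 and 3.4 CPM in the control and at 21.9, 21.7 and 19.8 CPM in the tumour replicates 1 to 3. The groups were far apart and the tumour libraries close together. zfh2 rose 6.80-fold (log2 fold change 2.77 ± 0.16, adjusted p = 4.35e-05, edgeR), and over all alternatives the log2 fold change lay between 2.68 and 3.05. Of all genes tested, 1.19% had a log2 fold change at least as high. Its exons overlap those of Tdg on the opposite strand over 2325 of 12424 bases, and the strandedness of counting is not stated by the labels or the table. Tdg itself, a DNA glycosylase gene, averaged 84.9 ± 3.95 CPM in control against 78.4 ± 5.40 CPM in tumour tubules (adjusted p = 0.452, edgeR). The annotation shows no exon overlap with another gene for the other 5 members.

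**Figure D3:**
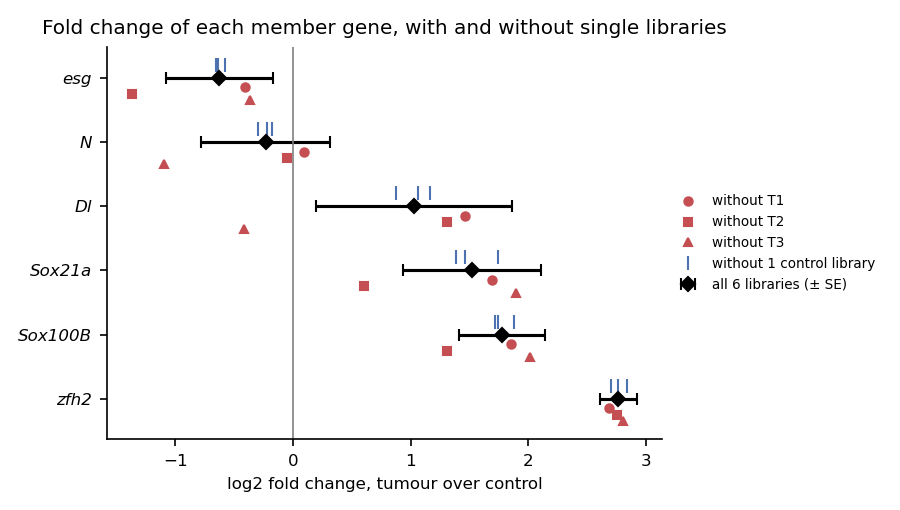
Log2 fold change of tumour over control for each member with all 6 libraries (diamond, bar ± SE) and after leaving out 1 tumour library (red symbols) or 1 control library (blue ticks). The 3 red symbols of zfh2 lie between 2.68 and 2.80, while leaving out tumour replicate 3 moves Dl from 1.03 to -0.42 and leaving out tumour replicate 2 moves esg from -0.62 to -1.37.

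The spread among tumour libraries set the members apart from each other. The highest tumour library exceeded the lowest 14.0-fold for Dl, a ratio matched or passed by 3.65% of the genes tested. The ratio was 5.12 for Sox21a and 5.05 for N, matched by 7.46% and 7.51% of genes, and 3.07 for esg and 2.50 for Sox100B, matched by 11.6% and 15.3%. For zfh2 it was 1.11, narrower than in most genes, since 89.8% were at least as wide, and the median of all genes was 1.33. Among control libraries the widest ratio of a member was 1.62, for Sox21a, matched by 30.4% of genes.

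Levels of different genes were compared as CPM per kilobase of annotated exon. In control tubules esg was the most abundant member on this scale, at 2.54 ± 0.131 CPM per kilobase (SD, n = 3). Sox100B followed at 1.24 ± 0.147 and Sox21a at 1.09 ± 0.278, and their libraries overlapped. Dl at 0.313 ± 0.0652, N at 0.296 ± 0.0244 and zfh2 at 0.25 ± 0.0228 CPM per kilobase came last, with overlapping neighbours. In tumour tubules the order of mean levels per kilobase was Sox100B (4.25 ± 2.09), Sox21a (3.14 ± 2.60), zfh2 (1.70 ± 0.0924), esg (1.65 ± 1.16), Dl (0.638 ± 0.708) and N (0.251 ± 0.198). Each pair of neighbours in the tumour order overlapped. Members farther apart in it did not always overlap: the libraries of Sox100B (2.65 to 6.62 CPM per kilobase) lay above those of zfh2 (1.60 to 1.77), which lay above those of Dl (0.103 to 1.44) and N (0.0938 to 0.474).

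Ratios within a library do not depend on how libraries are scaled. For each count of esg there were 0.394, 0.422 and 0.505 counts of Sox100B in the control and 3.16, 2.0 and 2.46 in the tumour replicates 1 to 3. The corresponding ratios of Sox21a were 0.332, 0.593 and 0.410 in control and 2.20, 2.10 and 1.26 in tumour libraries. Both Sox genes were therefore below esg in every control library and above it in every tumour library. In tumour replicate 3, however, Sox21a itself stayed within its control range, at 2.78 CPM. Its ratio was higher there because esg was low, at 2.21 CPM against 5.52 to 6.11 CPM in control. The ratio of zfh2 went from 0.465, 0.559 and 0.596 to 9.71, 3.2 and 8.98. These count ratios are not corrected for exon length, which is 12424 bases for zfh2 and 2273 for esg. Per kilobase, zfh2 was below esg in tumour replicate 2 (1.75 against 2.98 CPM) and above it in tumour replicates 1 and 3. For the 3 genes Sox100B, Sox21a and zfh2 the exact two-sided permutation test on log2 ratios gave p = 0.1. This is the smallest value that 3 against 3 libraries allow (adjusted p = 0.167 over the 5 ratios computed). The ratios of N were 0.527, 0.495 and 0.537 in control and 0.422, 0.278 and 2.18 in tumour libraries, and those of Dl were 0.320, 0.314 and 0.223 in control and 0.241, 0.288 and 3.45 in tumour libraries. Those of both genes overlapped between the groups (p = 1.0 and 0.8, exact permutation test; adjusted p = 1.0 for each), with tumour replicate 3 alone above the controls.

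**Figure D4:**
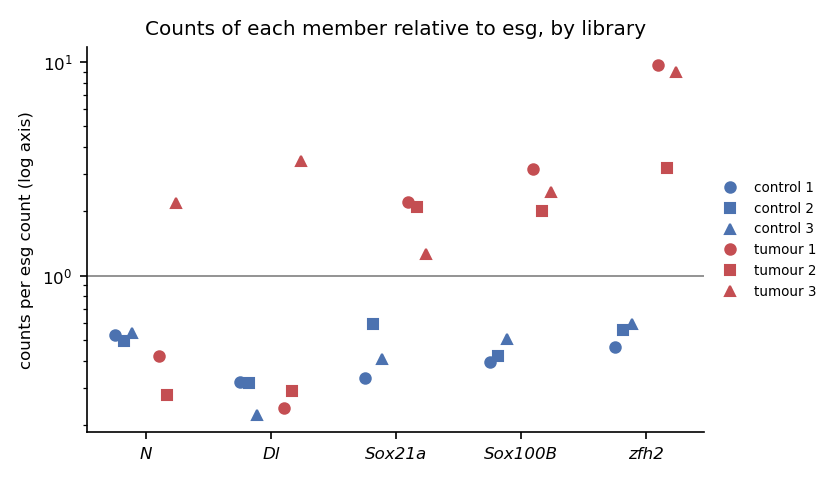
Counts of each of the other 5 members per count of esg in each library (log axis; control blue, tumour red; circle, square and triangle are replicates 1, 2 and 3). The tumour libraries of Sox21a, Sox100B and zfh2 lie above the line at 1 and their control libraries below it. For N and Dl only tumour replicate 3 lies above the line. The line marks equal counts, not equal levels, since counts were not divided by exon length. Per kilobase, zfh2 in tumour replicate 2 (1.75 against 2.98 CPM) and N in tumour replicate 3 (0.474 against 0.971 CPM) were below esg.

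In the Notch machinery, mam had the largest fold change that passed. Of 25 tested genes for ligand, receptor processing and signalling, 2 rose and 1 fell, where 14.8% and 13.0% of all genes did. At an unadjusted p under 0.05, 7 were higher and 2 lower, where 22.7% and 18.2% of all genes were. DESeq2 called 2 higher and 2 lower (13.9% and 17.4% of all genes), and limma-voom 3 and 1 (14.9% and 13.3%). Their median log2 fold change was 0.23, beside 0.08 over all genes tested. With library totals alone as the scaling, 10 rose and 1 fell, where 31.5% and 8.48% of all genes did. The coactivator gene mam was at 27.3, 37.2 and 24.9 CPM in the control and at 129, 130 and 120 CPM in the tumour replicates. It rose 4.23-fold (log2 fold change 2.08 ± 0.16, adjusted p = 1.57e-04, edgeR), and between 1.97 and 2.36 on the log2 scale over all alternatives. Rab11, which encodes a GTPase of recycling endosomes, rose 1.55-fold, from 189 ± 7.16 to 293 ± 25.5 CPM (adjusted p = 0.00625). Su(dx), which encodes a ubiquitin ligase that promotes Notch turnover, fell 1.55-fold, from 325 ± 32.3 to 210 ± 18.8 CPM (adjusted p = 0.00962). The corepressor gene CtBP (203 ± 8.99 and 255 ± 9.96 CPM, adjusted p = 0.0517), the epsin gene lqf (388 ± 93.2 and 261 ± 31.1 CPM, adjusted p = 0.0531) and the gamma-secretase gene aph-1 (16.3 ± 2.25 and 21.6 ± 0.835 CPM, adjusted p = 0.0643) did not pass. The exons of lqf overlap CG16998 on the opposite strand.

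Notch target genes were scarce. Of 19 targets fixed, 15 did not pass the filter on low counts, 6 of them with 0 counts in all 6 libraries, and 0 of the 4 tested passed the edgeR test. At an unadjusted p under 0.05, 2 were higher, where 22.7% of all genes were. DESeq2 called 1 higher (13.9% of all genes) and limma-voom 0 (14.9%). The repressor gene E(spl)m3-HLH was at 0.0253, 0.0541 and 0.577 CPM (1, 2 and 19 counts) in the control and at 1.42, 4.01 and 0.811 CPM in the tumour replicates 1 to 3. All tumour libraries were above all control libraries, as in 26.8% of the genes tested, but control replicate 3 came close to tumour replicate 3. The log2 fold change was 3.27 ± 1.13 (adjusted p = 0.0677, edgeR), and leaving out 1 library moved it between 2.36, without tumour replicate 2, and 5.62, without control replicate 3. E(spl)mbeta-HLH was at 0.621 ± 0.464 and 1.91 ± 0.899 CPM (adjusted p = 0.0933), and E(spl)malpha-BFM at 0.282 ± 0.322 and 1.05 ± 0.448 CPM (adjusted p = 0.221). The zinc-finger gene peb, also called hindsight, was at 11.7 ± 3.08 and 18.9 ± 10.02 CPM (adjusted p = 0.215). Each of these 4 was highest in tumour replicate 2, the library with the most esg. The median log2 fold change of the 4 was 1.75, beside 0.08 over all genes tested. This median does not stand for the list. E(spl)m3-HLH and E(spl)malpha-BFM (25, 0 and 7 control counts) passed the filter through the tumour libraries, where they were high. The target klu, which did not pass it, averaged 0.230 CPM in control and 0.123 CPM in tumour tubules. Without control replicate 3, E(spl)m3-HLH (adjusted p = 0.0157) and E(spl)mbeta-HLH (adjusted p = 0.0419) passed, where 8.80% of all genes were higher. Both also passed with library totals alone, where 31.5% of all genes were higher.

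**Figure D5:**
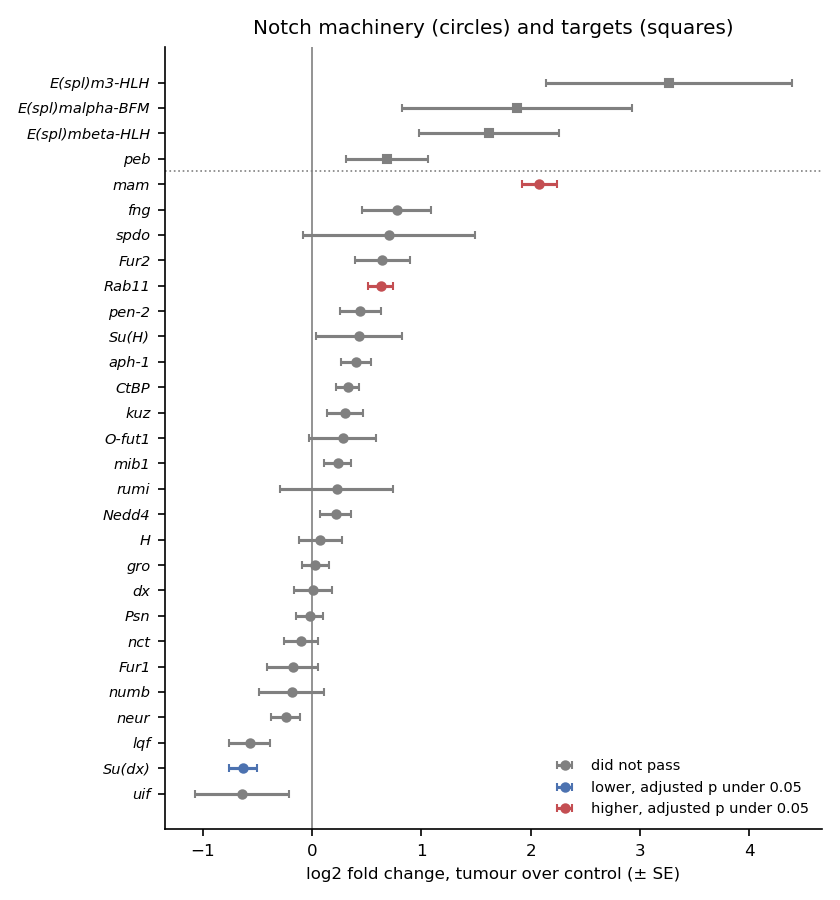
Log2 fold change of tumour over control (± SE) for the 25 tested genes of the Notch machinery (circles) and the 4 tested targets (squares), coloured by the edgeR call at an adjusted p under 0.05. The gene mam stands at 2.08, and E(spl)m3-HLH at 3.27 with an SE of 1.13 did not pass.

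Among 19 tested genes of progenitor and partner transcription factors, 2 rose and 3 fell, where 14.8% and 13.0% of all genes did. The median of their log2 fold changes was 0.016. The gene hdc (headcase), which marks gut progenitors, rose 1.84-fold, from 17.1 ± 1.85 to 31.4 ± 6.77 CPM (adjusted p = 0.00901, edgeR), and nub, whose call was lost in 9 of 15 alternatives, was the other. The gene mira, whose protein carries fate determinants in dividing neural stem cells, fell 3.58-fold, from 3.38 ± 0.871 to 0.946 ± 0.275 CPM (adjusted p = 0.0124). Sox102F, a group D Sox gene, was lower 2.88-fold (adjusted p = 0.038), and the corepressor gene Smr 1.44-fold (adjusted p = 0.0282). The call of Sox102F was lost in 5 of the 6 fits without 1 library, with limma-voom (adjusted p = 0.0616) and with library totals alone (0.0635). That of Smr was lost in 4 fits without 1 library and with library totals alone (adjusted p = 0.173). The exons of hdc, Smr and Sox102F overlap non-coding transcripts or a transposable element. The Snail-family relatives of esg were at or near 0: sna had 7 counts over the 6 libraries, 6 of them in tumour replicate 2, and wor had 1.

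Of 23 genes of progenitor growth signalling 4 rose and 2 fell, where 14.8% and 13.0% of all genes did. The protease gene rho, which releases ligands of the EGF receptor, rose 8.46-fold, from 0.679 ± 0.311 to 5.76 ± 1.19 CPM (adjusted p = 0.00154, edgeR). The ligand gene spi rose 1.5-fold (adjusted p = 0.00707) and the effector gene pnt 1.58-fold (adjusted p = 0.0066), while upd2, another cytokine gene, fell 4.52-fold (adjusted p = 0.00375). The receptor gene Egfr also fell (1.45-fold, adjusted p = 0.0235), and its call was lost with library totals alone (adjusted p = 0.191) and without control replicate 1 or 3 or tumour replicate 1 or 3 (0.0571 to 0.0621). Of the 9 cell cycle genes in this list 0 passed the edgeR test. At an unadjusted p under 0.05, 1 was lower, where 18.2% of all genes were. DESeq2 called 1 lower (17.4% of all genes) and limma-voom 0 (13.3%). Without tumour replicate 3, where these genes were high, 8 genes of the whole list fell, where 10.2% of all genes tested did.

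The genes whose levels moved most like each member were found by the root mean square difference between centred log2 profiles over the 6 libraries, among 8278 genes. For Dl they were Spc105R (0.209), a kinetochore gene, shu (0.319), which is required in the germline, and sip2 (0.333). For N they were yin (0.187), spn-B (0.197), a gene of meiotic recombination, and NaPi-III (0.210). Spc105R reached 7.31 CPM in tumour replicate 3 against 0.762 CPM in tumour replicate 1. For esg they were CG8051 (0.097), CG8774 (0.198) and CG11842 (0.204), and for Sox21a they were CG9084 (0.357), CG34236 (0.368) and CG7194 (0.394). CG8051 was at 3.84, 9.41 and 3.36 CPM in the tumour replicates, in the same order as esg. For Sox100B they were CG44014 (0.186), CG3987 (0.217) and CG7191 (0.257), which all rose, though the call of CG3987 was lost without control replicate 3 (adjusted p = 0.0568). For zfh2 they were ap (0.094), fax (0.130) and CG16995 (0.141). The LIM-homeodomain gene ap went from 6.29 ± 0.846 to 39.0 ± 2.91 CPM and fax from 21.6 ± 1.51 to 131 ± 6.71 CPM. These differences describe the 6 libraries and carry no test. All these genes were picked for their likeness over the same libraries. The rises and calls of those like Sox100B and zfh2 therefore follow from that choice and add no evidence for either member.

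Markers of the tubule's own cells were abundant in both groups. The calls in the marker lists stand against 14.8% of all genes higher and 13.0% lower. The 8 principal cell markers summed to between 12001 and 14925 CPM in control and between 7293 and 8835 CPM in tumour libraries, and 3 of them fell. The 6 stellate cell markers summed to between 1241 and 1429 CPM and between 954 and 1093 CPM, and 2 fell. Fat body markers went from between 2264 and 5142 CPM to between 159 and 336 CPM in the sum. Of 7 tested, 3 passed as lower, the yolk protein genes Yp1, Yp2 and Yp3. The sum does not stand for the whole list, since 3 of the 7 had a log2 fold change above 0. Enteroendocrine markers summed to between 27.8 and 30.3 CPM in control and between 83.8 and 116 CPM in tumour libraries, most of it Orcokinin, which rose 6.99-fold (adjusted p = 8.35e-05, edgeR). Of the 6 tested 2 rose and 1 fell, and their median log2 fold change was -0.23. The gene that fell was CCHa2, with a log2 fold change between -2.55 and -2.03 over all alternatives. The gene pros, which encodes the defining factor of these cells, had at most 32 counts in a library. Visceral muscle markers summed to between 652 and 780 CPM and between 573 and 721 CPM (1 of 10 fell). Haemocyte markers summed to between 223 and 239 CPM and between 249 and 276 CPM (1 of 7 tested rose and 2 fell). The haemocyte sum was higher although only 1 of the 7 had a log2 fold change above 0 (median -1.13). Tracheal markers summed to between 29.3 and 36.2 CPM and between 19.7 and 23.8 CPM (1 of 5 fell). Neuronal markers summed to between 49.1 and 59.9 CPM and between 54.3 and 65.2 CPM (1 of 6 rose). Only 1 of the 6 neuronal markers had a log2 fold change above 0 (median -0.89). The yki3SA transgene is driven in esg-positive cells wherever they lie, so an effect within the tubule's own progenitors and an effect of the gut tumour cannot be told apart for any member.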

How the data were processed

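The deposited table held unnormalised read counts per gene for each library; TopHat, Cufflinks and HTSeq appear in the submitters' processing notes without version or role. No source used here states the genome build, annotation or strandedness of counting. Symbols, positions and exon lengths came from the Ensembl BDGP6 annotation by FlyBase identifier (17552 of 17611 genes), and Dl, listed there as Delta, was matched by its identifier.

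R 4.3.3 was used with edgeR 4.0.16, DESeq2 1.42.0 and limma 3.58.1, and Python 3.11.15 with scipy 1.17.1. filterByExpr (minimum count 10, minimum total 15) kept 9789 genes. After TMM scaling, groups were compared with glmQLFit and glmQLFTest (robust), and p-values were adjusted by Benjamini-Hochberg over these genes, with a threshold of 0.05. SE is the log2 fold change divided by the square root of F. Log2 profiles used a prior count of 2 and genes with a mean log2 CPM of at least 0. On simulated counts with 100 genes changed per size, the edgeR test recovered 39% of 2-fold and 67% of 4-fold changes. Of its 114 calls 8 were false. A gene that did not pass may therefore still have changed.

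The members and lists were chosen with earlier results of these data known. The rule named the members, yki, every tested Notch target, the 6 machinery genes and 4 genes of each of the 2 other pathway lists with the smallest p, the 2 most abundant genes per marker list, and the 3 genes most like each member. Some marker genes of this rule are not described above, among them alphaTry and NaPi-T. Egfr, upd3, nub, CycB, nos, Jon65Aiii, lambdaTry, mag, sna, wor, pros, Yp1 and Tdg were named after their values were seen. So were the ratios to esg and the germline, eggshell and cell cycle subsets.

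Alternatives were RLE and upper-quartile scaling, library totals alone, no filter, at least 1 CPM in 3 libraries, a block by replicate number, DESeq2, limma-voom, a non-robust spread and leaving out each library.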

Additional observations from a re-analysis of the deposited data

How the results depend on the processing

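The rises of zfh2 and Sox100B passed under all 15 alternatives. Leaving out 1 library in turn gave log2 fold changes between -1.37 and -0.37 for esg, -1.09 and 0.092 for N, -0.42 and 1.46 for Dl, and 0.61 and 1.90 for Sox21a. N was at 0.098 with library totals alone. Sox21a passed at 1.78 with library totals alone and at 1.47 with DESeq2. Leaving out 1 library, between 0 and 1 member was lower, between 865 and 1223 of all genes were higher and between 882 and 1141 lower. Over these fits 1 to 2 machinery genes and 1 to 5 partner genes fell, 1 to 2 partner genes rose, 0 to 2 targets rose and 1 to 8 growth genes fell. With library totals alone 3079 genes were higher and 830 lower, 10 machinery, 2 target and 6 partner genes rose, and 1 partner and 1 growth gene fell. Machinery genes that fell numbered 2 with RLE or upper-quartile scaling, without a filter, with 1 CPM in 3 libraries and with DESeq2, which called 1 target higher. Partner genes that rose numbered 1 with RLE, without a filter, with the replicate block and with limma-voom.

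The direction of other genes that did not pass also turned. With library totals alone, the log2 fold change was 0.12 for Vha55, 0.0054 for serp, 0.083 for nSyb, 0.17 for Tdg and 0.14 for yin. NaPi-III was at -0.055 with RLE, -0.024 with upper-quartile scaling, -0.28 with the replicate block, -0.057 with DESeq2 and -0.13 with limma-voom, and sip2 at -0.19 with the replicate block. CycB was at -0.61 with the replicate block and -0.48 with limma-voom, and nos at -0.97 and -0.69. Without 1 library, NaPi-III lay between -0.88 and 0.35, sip2 between -1.14 and 1.0, Spc105R between -0.34 and 1.43, yin between -1.07 and 0.070 and sls between -0.081 and 0.31. CycB lay between -1.67 and 0.97, nos between -2.07 and 0.62, and lambdaTry between -8.36, where both tumour libraries were at 0, and 0.37. The cause was not tested.

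The labels do not say what a replicate number shares, and same-numbered libraries did not deviate together: the correlations of their deviations from the group means over genes were 0.08, -0.08 and 0.06. With the replicate block 1345 genes were higher and 1193 lower. The calls of nub (adjusted p = 0.114) and Sox102F (0.0883) were lost there. Of the 19 Notch targets, 15 did not pass the filter on low counts, and the reason was not tested.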
